A study of Homo sapiens with 30 samples.

Results

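The genes of the ezrin, radixin, moesin and merlin proteins, EZR, RDX, MSN and NF2, were examined in chromatin immunoprecipitation sequencing (ChIP-seq) of MDA-MB-231, an established human triple-negative breast cancer cell line. They were taken by name, 4 of the 20098 protein-coding genes on the autosomes and chromosome X, and the rule that chose them used no measured value. The study followed RDX as a gene that SAP30 coactivates, so RDX was chosen by the study on this cell line, and its values are not independent evidence of that role. SAP30 is a subunit of the SIN3 corepressor complex, and SIN3A and SIN3B are the alternative scaffolds of that complex. These proteins were precipitated only from cells labelled MDA-MB-231 with no line named, taken here as parental. RNA polymerase II (Pol II) and the promoter marks H3K4me3 and H3K9Ac were precipitated from both parental and SAP30-KO1 cells. SAP30-KO1 is the same line after SAP30 knockout by CRISPR/Cas9, grown as a mixture of several clones that each began from a single cell. The 9 groups held 2 replicate libraries each, and the labels name no other treatment. Making the knockout also took a guide RNA vector and selection with puromycin. The comparison line is labelled parental, and not as a scrambled control, so these steps separate the lines too.

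Ezrin, radixin and moesin link actin filaments to proteins of the plasma membrane. Each folds shut when its N-terminal FERM domain binds its own C-terminal tail, and opens on binding phosphoinositides and on phosphorylation of a threonine near the tail. They organise microvilli, membrane ruffles and the cell cortex, and are studied in breast cancer for their part in migration. Merlin, encoded by the tumour suppressor gene NF2, shares the FERM domain, lacks the typical actin-binding tail and acts upstream of the Hippo kinases.

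Peak summits, the bases at which peaks were highest, were listed separately for the 18 libraries. A summit was scored by the −log10 of its q-value. The lists held 10861 to 54622 summits, and their sequencing depth is unknown. A score was therefore used only as a rank within its own list, from 0% for the highest score to 100% for the lowest, so a larger rank is a weaker summit. The value of a gene in a list was the rank of its best summit within 1000 bp of a transcription start site. VIM, CD44, AXL and CAV1, which mark mesenchymal breast cancer cells, had promoter summits in all 18 lists. Of the luminal genes, GATA3 had no promoter summit in any list. ESR1 and PGR had no Pol II summit but had H3K4me3 in all 4 lists, with H3K9Ac at ESR1 in both SAP30-KO1 and neither parental list and SAP30 at PGR in both lists. The epithelial gene EPCAM carried Pol II, H3K4me3 and H3K9Ac in all 12 lists of these. SAP30 itself had Pol II, H3K4me3 and H3K9Ac summits in both lines, with Pol II ranks of 10.2% and 5.4% in parental lists and of 3.75% and 23.9% in SAP30-KO1 lists. Its H3K4me3 ranks were 11.3% and 22% in parental lists and 23.8% and 30.3% in SAP30-KO1 lists, weaker in both. Its H3K9Ac ranks overlapped, at 11.7% and 13.7% in parental lists and at 9.24% and 12.3% in SAP30-KO1 lists. A promoter summit does not report a frameshift in the coding sequence, and SAP30 was not precipitated from SAP30-KO1 cells, so the knockout itself could not be checked here.

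RDX (ENSG00000137710.17) lies on the reverse strand of the long arm of chromosome 11, at chr11:109735021-110167437 of GRCh37. That span of 432 kb is set by a long alternative transcript, and the canonical transcript covers 67.2 kb of it. EZR (ENSG00000092820.19) lies on the reverse strand at chr6:159186773-159240400 and has 2 start sites that are 1141 bp apart. MSN (ENSG00000147065.18) lies on the forward strand at chrX:64808257-64961793, with its canonical start site 79.3 kb inside the annotated first base. NF2 (ENSG00000186575.19) lies on the forward strand at chr22:29999545-30094587. The 5 processed retrocopies of the family, EZRP1, MSNP1, RDXP1, RDXP2 and RDXP3, had 0 summits within 1000 bp in any list.

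The 300 bases directly upstream of the first start site are shown for RDX and MSN, since the best SAP30 and SIN3A summits of both replicates fell inside these windows at both genes. They are read from the GRCh37 genome, on the strand of the gene, at chr11:110167438-110167737 for RDX and at chrX:64887191-64887490 for MSN. Capitals mark GGGCGG, a GC box, and CACGTG, an E-box, on either strand.
RDX: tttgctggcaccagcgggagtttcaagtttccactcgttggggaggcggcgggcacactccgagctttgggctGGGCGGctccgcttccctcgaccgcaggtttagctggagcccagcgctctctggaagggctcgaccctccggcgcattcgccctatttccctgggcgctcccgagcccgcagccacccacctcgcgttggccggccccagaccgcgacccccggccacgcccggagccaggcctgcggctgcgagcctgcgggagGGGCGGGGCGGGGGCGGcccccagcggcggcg
MSN: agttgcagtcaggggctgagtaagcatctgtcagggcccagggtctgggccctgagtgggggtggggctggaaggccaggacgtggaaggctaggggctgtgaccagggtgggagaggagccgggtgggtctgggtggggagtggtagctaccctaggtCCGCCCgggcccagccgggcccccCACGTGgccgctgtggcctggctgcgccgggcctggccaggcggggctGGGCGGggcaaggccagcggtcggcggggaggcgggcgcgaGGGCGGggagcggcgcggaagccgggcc
The SAP30 summits of RDX lay 254 and 260 bp upstream of the first start site, and its SIN3A summits lay 238 and 41 bp upstream. The GC box nearest to the SAP30 summits lay 227 to 222 bp upstream, and the 3 others, which overlap or adjoin, lay between 32 and 16 bp upstream. At MSN the SAP30 summits lay 101 and 81 bp upstream, the SIN3A summits 107 and 62 bp and the SIN3B summit of replicate 2 lay 96 bp upstream. The E-box of MSN covered the bases 117 to 112 bp upstream, and its GC boxes those 141 to 136, 69 to 64 and 28 to 23 bp upstream. A match of letters is a description and was not tested as a site of binding.

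Counted over both strands, GGGCGG occurred 4 times in the windows of RDX and EZR, 3 times in that of MSN and 1 time in that of NF2. It was present in 54.8% of the windows of the same length upstream of 20094 protein-coding genes. CACGTG occurred only in the MSN window and is in 8.46% of all windows. CCAAT occurred 2 times upstream of NF2, in neither RDX, EZR nor MSN, and is in 37.1% of all windows. TATAAA and TGACGTCA were in none of the 4 windows. RDX had 34 CG dinucleotides, EZR 30, MSN 22 and NF2 18, against a median of 18 over all windows. G and C made up 74% of the bases in RDX, 71.3% in EZR, 75.7% in MSN and 61.3% in NF2, against a median of 60%. NF2 was thus near the middle of all promoters in both measures, and RDX, EZR and MSN lay above it.

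Summits of the SIN3 proteins were present at nearly all of these promoters. RDX, EZR and MSN each had a promoter summit in all 18 lists, as did 28.6% of all protein-coding genes, and NF2 had one in 17. The list without NF2 was SIN3A replicate 1, in which the nearest summit was 49687 bp away. All 4 genes had SAP30 summits in both replicates (61.2% of all genes), all 4 had SIN3B (51.7%) and 3 had SIN3A (31.5%). SAP30, SIN3A and SIN3B met in both replicates at 3 promoters, those of RDX, EZR and MSN, against 30.2% of all genes.

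SAP30 ranked highest at RDX and MSN. At RDX its summit stood at 4.55% and 1.54% of the lists (mean 3.04% ± 2.12, SD, n = 2), and at MSN it stood at 3.33% and 4.66% (3.99% ± 0.94). EZR followed at 16.8% and 13.4% (15.1% ± 2.4), and NF2 was last at 23.7% and 17.8% (20.7% ± 4.16). RDX and MSN did not differ beyond their spread, since each led in 1 replicate. Both lay above EZR, and EZR above NF2, in each replicate.

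The scaffolds were less evenly ranked. SIN3B stood at 16.2% and 16.4% at RDX (16.3% ± 0.0976), at 37.5% and 14.8% at EZR, at 24.7% and 37.8% at MSN and at 46.4% and 65.2% at NF2. SIN3A stood at 22.7% and 7.32% at RDX (15% ± 10.9), at 55.5% and 34% at EZR and at 10% and 43% at MSN, and its only rank at NF2 was 36.1%. NF2 had the weakest SIN3B summit of the 4 in both lists, while the order of RDX, EZR and MSN changed between replicates for both scaffolds.

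In EZR the best summits did not share a position. Its best SAP30 summits, at 1115 and 1111 bp downstream of the canonical start site, and its best Pol II summits, at 1126 to 1186 bp in all 4 lists, lay at the second start site. H3K4me3 peaked at 253 to 291 bp downstream of the canonical start. The antisense transcript EZR-AS1 overlaps the head of the gene, and ChIP-seq of this kind does not tell the strands apart. In RDX the best H3K4me3 summit was likewise downstream, at 457 to 490 bp, and in MSN and NF2 it was at 252 to 329 bp.

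**Figure D1:**
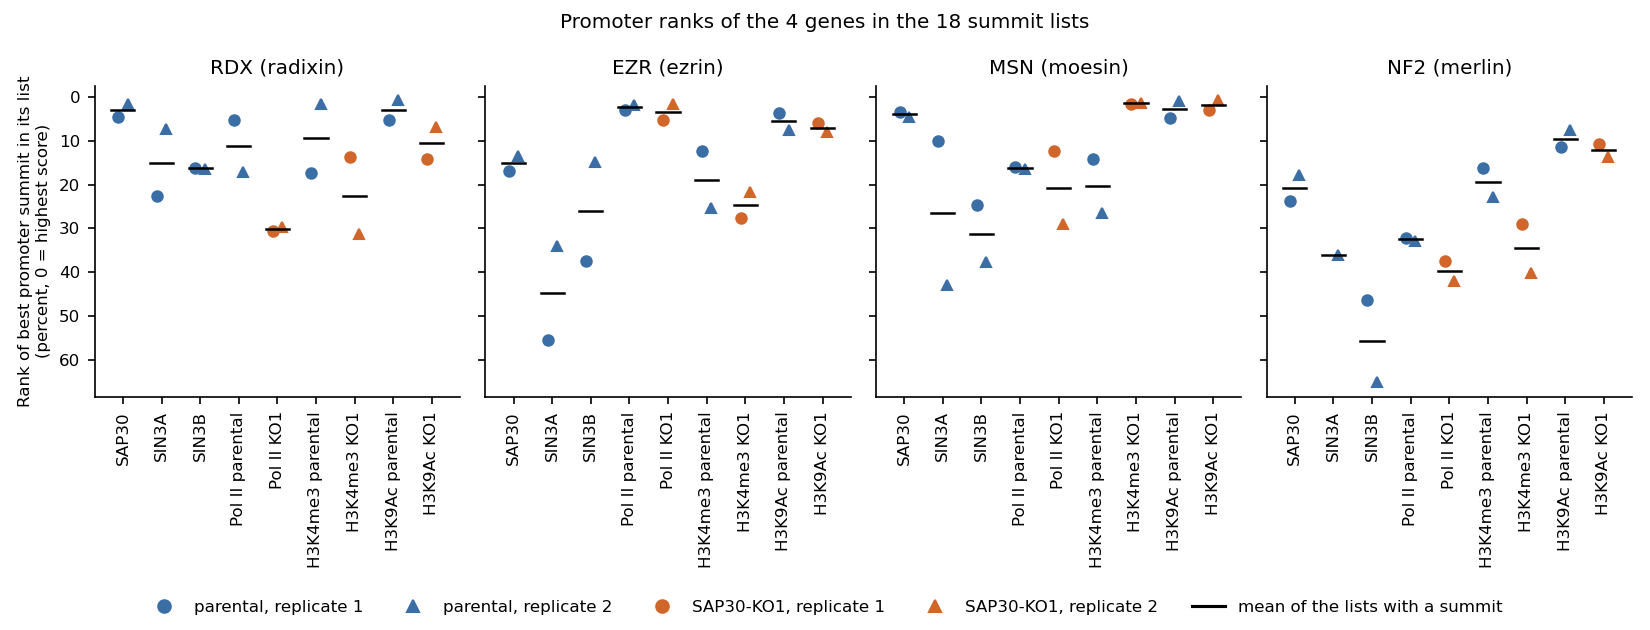
Rank of the best promoter summit, in percent of its list with 0 at the top, for RDX, EZR, MSN and NF2 in the 9 groups. Points are the 2 libraries of a group and bars their mean; RDX Pol II lies at 5.34% and 17.2% in parental lists and at 30.7% and 29.6% in SAP30-KO1 lists, and MSN H3K4me3 differs the other way.

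Whether the promoters changed with loss of SAP30 was asked for Pol II, H3K4me3 and H3K9Ac. With 2 libraries against 2, an exact permutation test has 6 arrangements and cannot give a two-sided p below 0.33, so no change here could pass a threshold of 0.05. A gene was instead described as worse or better where both SAP30-KO1 ranks lay outside both parental ranks on that side, beside the share of all genes that did so. The labels do not say whether the 2 libraries of a group came from separate cultures, so their spread may be technical.

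RDX had the largest Pol II rank change of the 4 genes. Its Pol II summit stood at 5.34% and 17.2% in parental lists (mean 11.3% ± 8.37, SD, n = 2) and at 30.7% and 29.6% in SAP30-KO1 lists (30.2% ± 0.759). Both SAP30-KO1 lists were worse than both parental lists, by 18.9 points on average (exact permutation test, p = 0.33). The change was larger than that of 91.3% of the 10706 genes with Pol II in all 4 lists, whose median change was 1.48 points. Taking the summit nearest to a start site in place of the best one gave 31.3 points for RDX. Pol II was still called at RDX in both SAP30-KO1 libraries. Less Pol II in SAP30-KO1 cells is reported by the study at its coactivated genes, with RDX shown as an example. That too was signal along the genes and not a rank within a summit list.

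The Pol II differences of the other members were smaller. EZR, which had the best Pol II rank of the 4 genes in every list, stood at 2.98% and 1.73% in parental lists and at 5.18% and 1.6% in SAP30-KO1 lists, which overlap (change 1.03, exact permutation p = 1, or 11.7 with the canonical start site only, exact permutation p = 0.67). MSN stood at 16% and 16.5% in parental lists and at 12.3% and 29.1% in SAP30-KO1 lists, which also overlap (change 4.48, exact permutation p = 1). NF2 stood at 32.1% and 32.8% in parental lists and at 37.5% and 42.1% in SAP30-KO1 lists, worse in both, by 7.32 points (exact permutation p = 0.33), or by 20.8 points with the nearest summit. NF2 was last of the 4 in every Pol II list. In all, 2 of the 4 genes were worse and 0 better, where 24.2% of all genes were worse and 15.4% were better. The median change of the 4 was 5.9 points.

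For H3K4me3 the members differed in direction. MSN stood at 14.2% and 26.6% in parental lists (20.4% ± 8.77) and at 1.57% and 1.3% in SAP30-KO1 lists (1.43% ± 0.196), better in both, by 19 points (exact permutation p = 0.33). Only 0.431% of 12531 genes had a change below that of MSN. NF2 differed the other way, with 16.2% and 22.8% in parental lists and 29% and 40.2% in SAP30-KO1 lists, worse in both by 15 points (exact permutation p = 0.33), and 96.1% of genes had a smaller change. Without SAP30-KO1 replicate 2 the NF2 change was 9.43 points.

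Neither RDX nor EZR separated the lines by H3K4me3 rank. The study reports less H3K4me3 in SAP30-KO1 cells at the genes it calls coactivated and shows RDX as an example. It compared signal along the genes, and a rank within a summit list is another measure. RDX stood at 17.4% and 1.53% in parental lists and at 13.8% and 31.3% in SAP30-KO1 lists, a mean change of 13.1 points with overlapping lists (exact permutation p = 0.67). It was 4.29 points without SAP30-KO1 replicate 2, 5.13 without parental replicate 2, 21 without parental replicate 1 and 21.9 without SAP30-KO1 replicate 1. The parental replicates of RDX were thus further apart than the means of the lines. EZR stood at 12.4% and 25.4% in parental lists and at 27.6% and 21.8% in SAP30-KO1 lists (change 5.81, exact permutation p = 0.67). The 4 genes gave 1 worse and 1 better, where 28.1% of all genes were worse and 11.5% were better, and their median change was 9.44 points against 2.09 for all genes.

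H3K9Ac was high at all 4 promoters and separated the lines only at RDX. For this mark the study reports no change in SAP30-KO1 cells over its coactivated genes, of which RDX is an example. That was signal along the genes as a set, and the rank of a single gene within a summit list is another measure. RDX stood at 5.2% and 0.716% in parental lists (2.96% ± 3.17) and at 14.2% and 6.84% in SAP30-KO1 lists (10.5% ± 5.24), worse in both by 7.59 points (exact permutation p = 0.33), and by 3.88 points without SAP30-KO1 replicate 1. EZR stood at 3.69% and 7.43% in parental lists and at 5.96% and 8.1% in SAP30-KO1 lists. MSN stood at 4.85% and 0.823%, then at 2.88% and 0.775%, and NF2 at 11.5% and 7.59%, then at 10.7% and 13.7%. The mean changes of EZR, MSN and NF2 were 1.46, -1.01 and 2.64 points, each with overlapping lists (exact permutation p = 0.67 for each). Over all 12048 genes with the mark, 22.1% were worse and 16.4% better, and the median change was 0.309 points against 2.05 for the 4 genes.

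RDX was then set beside its paralogues within each library. The Pol II rank of RDX minus the mean of EZR, MSN and NF2 was -11.7 and 0.179 points in parental libraries and 12.4 and 5.39 in SAP30-KO1 libraries, a change of 14.6 (exact permutation p = 0.33), or 8.72 without parental replicate 1. RDX was thus ahead of or level with the mean of the other three in parental libraries and behind it in SAP30-KO1 libraries. For H3K9Ac the difference went from -1.49 and -4.57 to 7.73 and -0.674, a change of 6.56 (exact permutation p = 0.33), or 2.35 without SAP30-KO1 replicate 1. For H3K4me3 it was 3.13 and -23.4 in parental libraries and -5.62 and 10.2 in SAP30-KO1 libraries, which overlap (change 12.5, exact permutation p = 0.67).

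**Figure D2:**
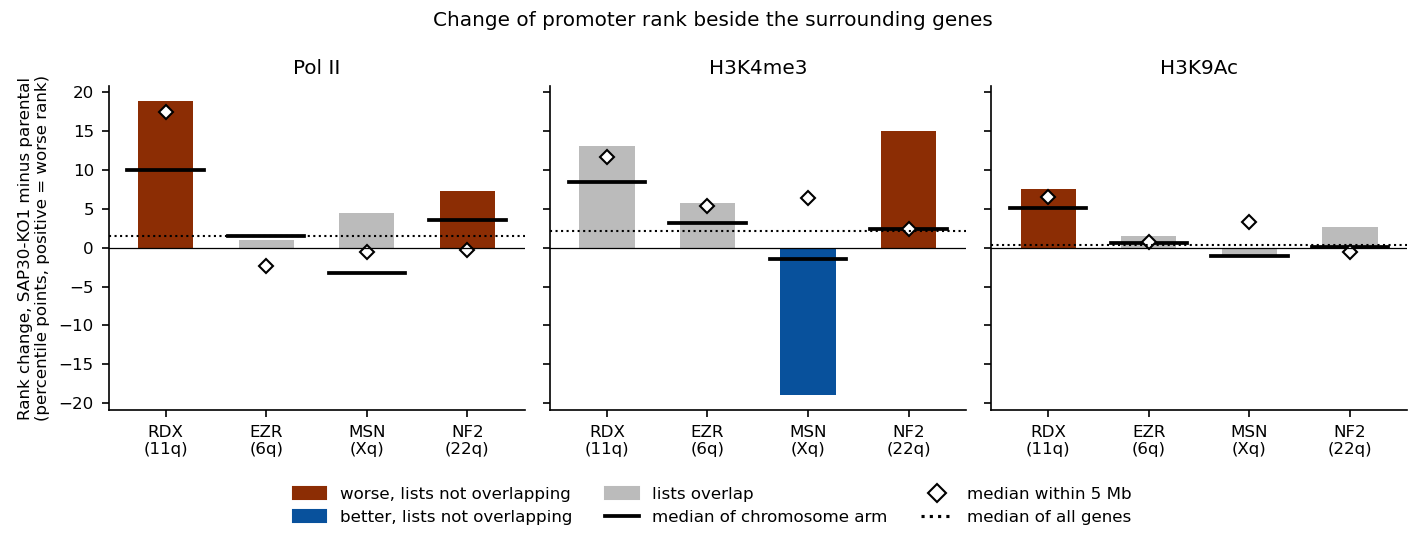
Change of the best promoter rank, mean of SAP30-KO1 minus mean of parental lists in percentile points, for the 4 genes and 3 marks, where above 0 is a worse rank. Thick lines are the median of the chromosome arm, diamonds the median of genes within 5 Mb and dotted lines the median of all genes; RDX Pol II, at 18.9, stands close to its neighbours at 17.5, while MSN H3K4me3, at -19, stands far below the median of its arm.

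The paralogues lie on other chromosomes, so RDX was also set beside the genes around it. Earlier results of these data had already singled out the long arm of chromosome 11. Its place among the arms is therefore a description and not a separate finding. The long arm of chromosome 11 had the largest median change of 40 chromosome arms for all 3 marks. Its median Pol II change was 9.94 points over 402 genes, of which 54.5% were worse and 2.49% better. Within 5 Mb of RDX the median was 17.5 points over 37 genes, of which 64.9% were worse. The Pol II change of RDX, 18.9 points, exceeded that of 77.1% of the genes of its arm and lay near the median of its neighbourhood.

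The marks gave the same picture. For H3K4me3 the median was 8.5 points over 487 genes of the arm and 11.7 points over 47 genes within 5 Mb, against 13.1 at RDX, a value that ranged from 4.29 to 21.9 as single libraries were left out. For H3K9Ac it was 5.09 points over 470 genes of the arm and 6.5 points over 43 genes within 5 Mb, against 7.59 at RDX. RDX therefore stood above the middle of its arm, above at least 70.9% of its genes for each mark, but not apart from it.

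Subtracting the median rank of the arm in each library left a change of 8.43 points for Pol II at RDX, from -15.5 and -0.441 in parental libraries to 2.1 and -1.22 in SAP30-KO1 libraries. These values overlap (exact permutation p = 0.67). The same subtraction left 2.77 points for H3K4me3 (exact permutation p = 0.67) and 1.49 points for H3K9Ac (exact permutation p = 1), again with overlapping libraries. The change at RDX and the shift of its arm were measured in the same libraries, and beyond this subtraction their parts in the rank of RDX cannot be told apart.

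The arms of the paralogues had smaller median changes. The median Pol II change was 1.53 points on the long arm of chromosome 6, 3.54 on that of chromosome 22 and -3.28 on that of chromosome X, the lowest of the 40 arms. The H3K4me3 medians were 3.17, 2.47 and -1.4 points in the same order, so MSN, at -19, lay below all but 0.82% of the 244 genes of its arm, and NF2, at 15, lay above 96.2% of the 287 genes of its own. Among the 20 genes within 5 Mb of MSN the median H3K4me3 change was 6.34 points, opposite in sign to that of MSN.

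**Figure D3:**
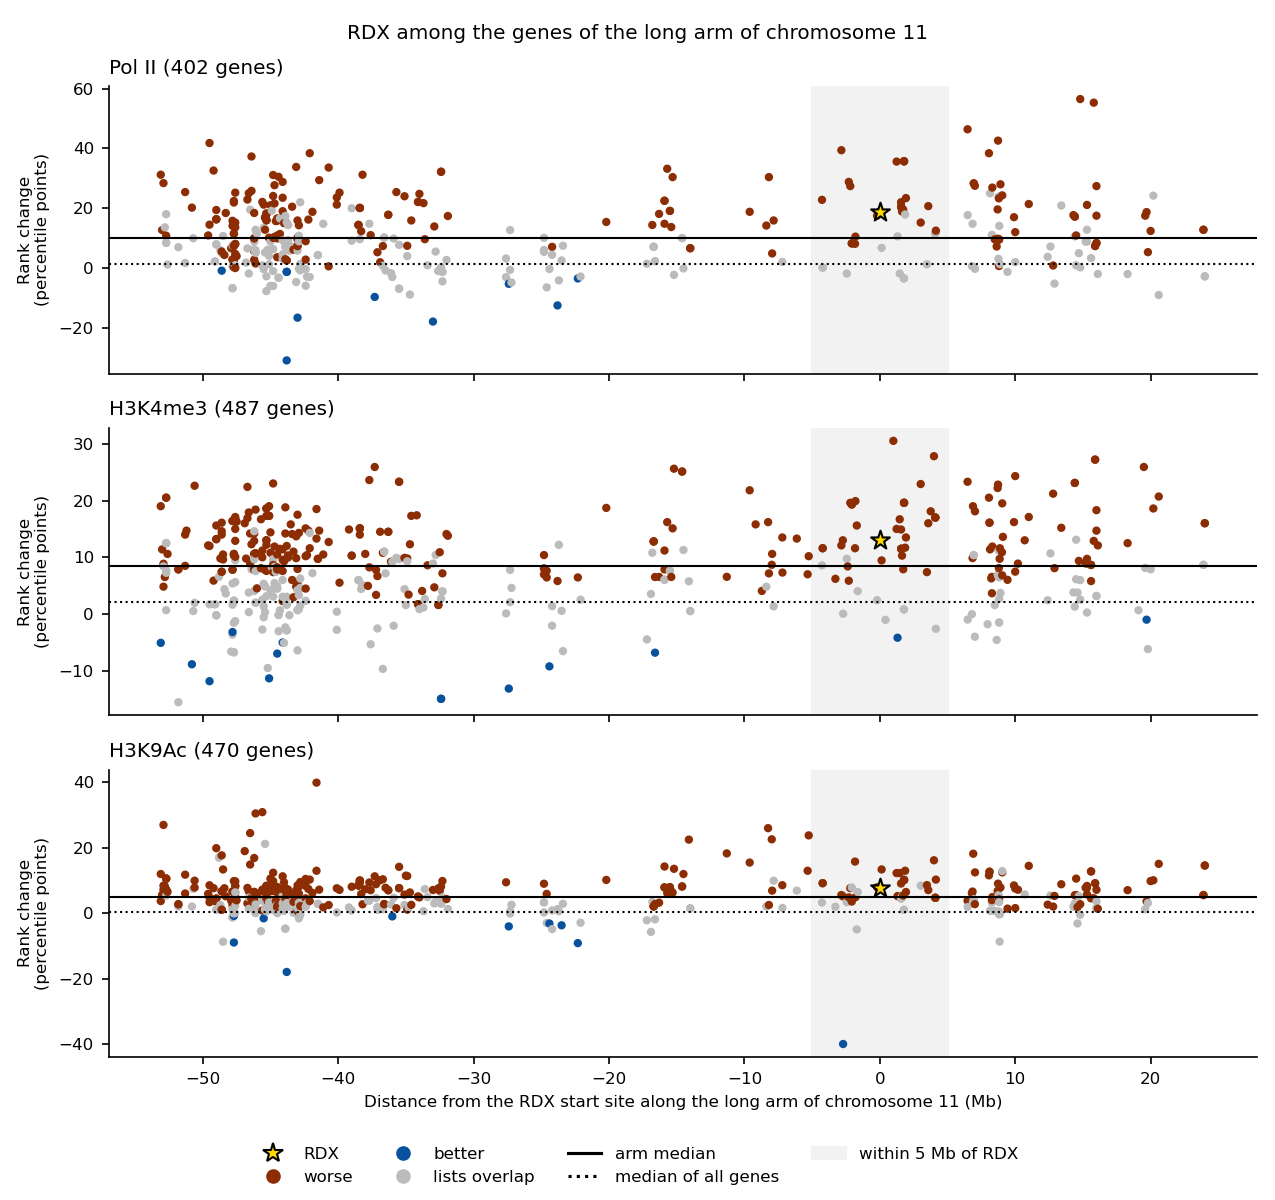
Rank change of every protein-coding gene of the long arm of chromosome 11 with a promoter summit in all 4 lists of a mark, by distance from the RDX start site in Mb. Dots are genes, coloured by whether the lines overlap, the star is RDX, the solid line is the arm median and the dotted line the median of all genes; RDX lies within the cloud of its neighbours for all 3 marks.

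Among the 5 protein-coding genes with a start site within 1 Mb of RDX, ZC3H12C and FDX1 had Pol II summits. ZC3H12C, which encodes a zinc finger endoribonuclease and has its canonical start site 203 kb from that of RDX, inside the annotated span of RDX, stood at 17.3% and 20.8% for Pol II in parental lists and at 34.3% and 38.8% in SAP30-KO1 lists, worse in both by 17.5 points. Its change was close to that of RDX. FDX1, the gene of the mitochondrial electron carrier ferredoxin, overlapped for Pol II (31.3% and 19.7%, then 25% and 39.4%) and was worse for H3K9Ac, from 2.34% and 4.34% to 18.2% and 15.3%. ARHGAP20 had H3K4me3 in all 4 lists without Pol II, and C11orf87 and POU2AF2 had no summit of any mark.

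Near NF2, the gene THOC5, of an mRNA export complex, starts 49.9 kb upstream and NIPSNAP1 starts 22.5 kb upstream. Both had overlapping lines for Pol II and for H3K4me3, with H3K4me3 changes of 2.39 and 0.372 points, where that of NF2 was 15. CABP7, which starts 116 kb downstream, had no promoter summit of Pol II, H3K4me3 or H3K9Ac. No protein-coding gene beside the member itself starts within the span or the 50 kb flanks of EZR or MSN.

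Away from the promoters, summits that lay within 1000 bp of each other were joined, which gave 43 elements in the gene bodies and 50 kb flanks of the 4 genes, 17 at RDX, 4 at EZR, 10 at MSN and 12 at NF2. Of these, 3 were promoters of neighbouring genes. The other 40 were set beside the 38155 elements of all autosomes and chromosome X that lay away from every protein-coding start site used here. SAP30 was present in both replicates at 17 of the 40 (29.4% of all elements), SIN3B at 1 (7.11%) and SIN3A at 0 (1.2%). H3K9Ac was in all 4 lists at 15 of the 40 (34.1% of all elements), H3K4me3 at 1 (10.1%) and Pol II at 0 (5.05%). The 1 with H3K4me3 lay at the annotated first base of MSN, which is not among the start sites used here. Pol II was in both parental and neither SAP30-KO1 list at 3 of the 40 (2.13%), H3K4me3 at 2 (2.05%) and H3K9Ac at 4 (3.12%), and the reverse was found at 0 of the 40 for each of them, against 0.134%, 0.231% and 2.26% of all elements. Elements listed only in parental cells thus outnumbered the reverse over all elements too. RDX held 1 of the 3 such elements with Pol II, 2 of the 2 with H3K4me3 and 3 of the 4 with H3K9Ac. Promoters on its chromosome arm had the largest median shift to worse ranks among 40 arms, whichever mark was taken. The share of such elements on that arm was not counted. With so few elements the counts are a description of these loci.

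The 4 genes differed in what their bodies held. Inside the canonical transcript of RDX, beyond 1000 bp of its start sites, only 5 summits were found in the 18 lists together, while that of MSN held 62, of which H3K9Ac gave 20 in parental and 16 in SAP30-KO1 lists and SAP30 gave 12. Over the whole annotated span RDX held 112 summits, most of them outside the canonical transcript, and 18 lists had a summit at the ZC3H12C promoter inside that span. EZR held 16 body summits and NF2 48. The lengths searched differ between the genes.

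Beside RDX, an element 32.1 kb upstream, at chr11:110199114-110199940, held SAP30 in both lists and carried Pol II, H3K4me3 and H3K9Ac in parental lists only. Its Pol II ranks were 80.8% and 90.4% in parental lists, its H3K4me3 ranks 78.9% and 66.1% and its H3K9Ac ranks 77.2% and 34.9%, and none of the 6 SAP30-KO1 lists had a summit there. It lies 279 bp from the start site of a long noncoding RNA. A further element inside the annotated span, at chr11:110079673-110080233, 87.4 kb downstream of the start site, held H3K4me3 at 69.1% and 70% in the parental lists and in neither SAP30-KO1 list. Most of these ranks are in the weaker part of the lists, which hold no summit with a score under 1.3. Whether elements elsewhere on the long arm of chromosome 11 were missing from SAP30-KO1 lists as often was not tested.

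EZR had an element 32.2 kb upstream as well, at chr6:159270636-159275957. It held SAP30 at 48% and 55.5%, and Pol II at 95.5% and 84.3% in parental lists and in neither SAP30-KO1 list, while H3K9Ac remained in all 4 lists, at 30.2% and 32.9% in parental and at 27.3% and 41.8% in SAP30-KO1 lists. The 2 parental Pol II summits lay at -34.8 and -30.7 kb from the canonical start site of EZR, so no single Pol II summit was shared. The H3K9Ac ranks of this long element also came from different summits, at -30.2 and -35.5 kb in parental lists. In NF2 an element lay in intron 1, at chr22:30014052-30020705. There Pol II stood at 76.5% and 80.8% in parental lists and was in neither SAP30-KO1 list, while H3K9Ac stood at 31.2% and 22.4% in parental lists and at 26.8% and 30.5% in SAP30-KO1 lists. Both elements thus had H3K9Ac in all 4 lists and Pol II in neither SAP30-KO1 list. Only in NF2 did the 2 weak parental Pol II summits lie close together, at 18.3 and 18.1 kb.

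In MSN, intron 1 held an element at chrX:64895995-64899830, 10.8 kb downstream of the start site, with SAP30 at 69.7% and 61.4% and H3K9Ac at 35.8% and 38.9% in parental and at 30.7% and 42.4% in SAP30-KO1 lists. The annotated first base of MSN, 79.3 kb upstream of the canonical start, had an element of its own at chrX:64807892-64809343. It was present in 11 of the 18 libraries, with H3K4me3 at 85.9% and 71.5% in parental lists and at 89.4% and 72.5% in SAP30-KO1 lists. H3K4me3 there lay in the weaker part of all 4 lists, unlike that of the canonical promoter.

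**Figure D4:**
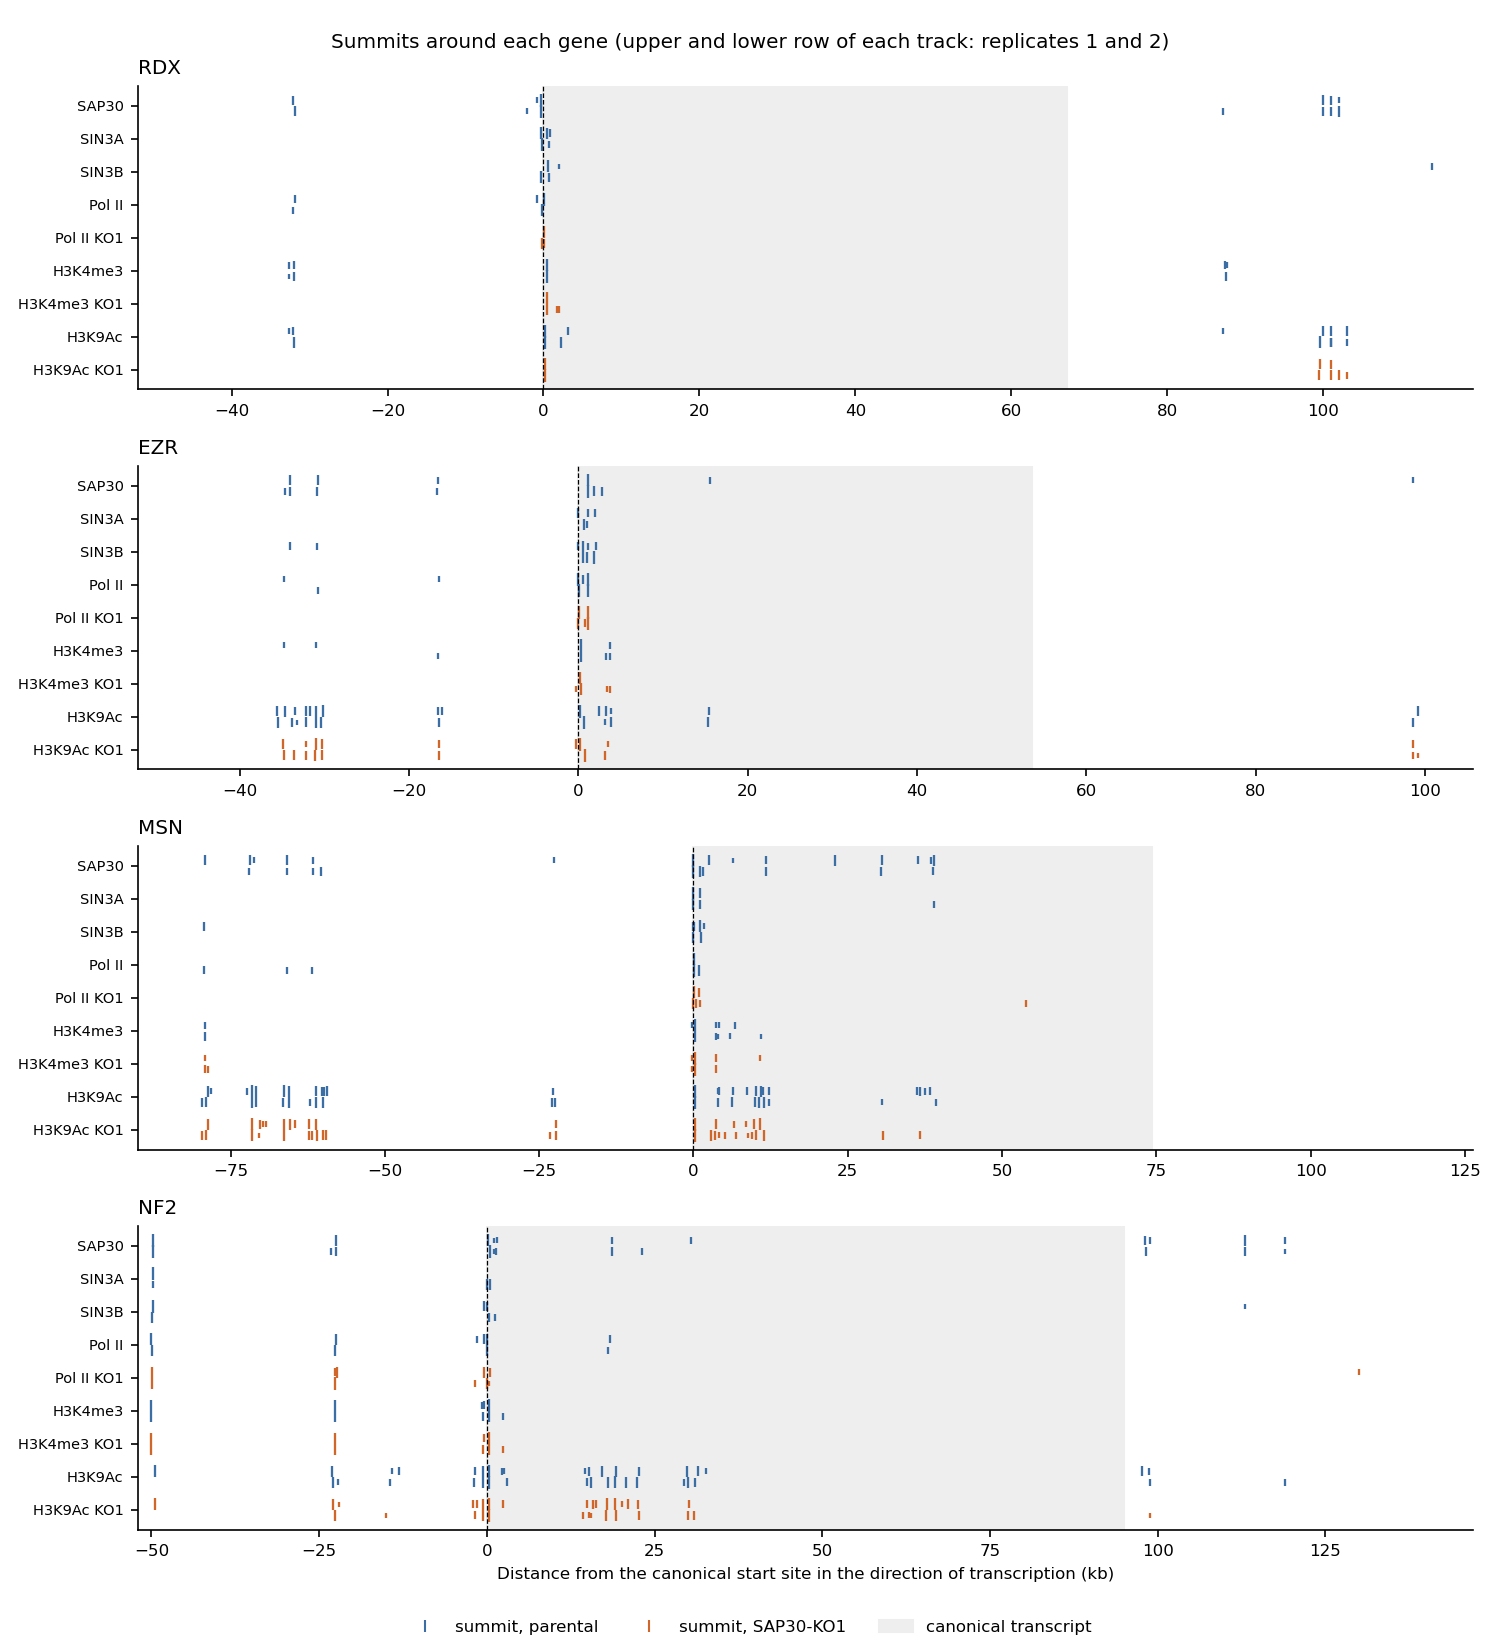
Summits around the canonical start site of each gene, by distance in kb in the direction of transcription, with 1 track for each of the 9 groups and the 2 libraries of a group as its upper and lower row. Taller ticks rank higher in their list and the grey band is the canonical transcript; the annotated span of RDX runs on past the right edge. The element 32.1 kb upstream of RDX has parental ticks and none of SAP30-KO1.

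The proteins that bind or switch on this family were given by a list of 27 genes. Of these, 22 had SAP30 at the promoter in both replicates (61.2% of all genes), 19 had SIN3B (51.7%), 10 had SIN3A (31.5%) and 9 had all 3 proteins (30.2%). Of the 19 with Pol II in all 4 lists, 2 were worse and 6 better, with a median change of 0.238 points. Of the 25 with H3K4me3, 5 were worse and 1 better (median 2.48 points), and of the 21 with H3K9Ac, 9 were worse and 1 better (median 0.626 points). For Pol II, 10.5% of the partners were worse and 31.6% better, against 24.2% and 15.4% of all genes. For H3K4me3 the shares were 20% and 4%, against 28.1% and 11.5%, and for H3K9Ac they were 42.9% and 4.76%, against 22.1% and 16.4%. With so few genes these shares are a description of the list. The calls ask for no least size of change, so small differences count too, among partners and all genes alike.

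For Pol II the largest of the separated changes were those of AMOTL1, NHERF2 and SDC2. AMOTL1, a merlin partner of the angiomotin family, went from 33.5% and 36.6% to 53.2% and 83.3%. It was worse for all 3 marks, and it lies on the same arm as RDX. NHERF2, a scaffold that binds the FERM domain, went from 45.6% and 34.9% to 29.7% and 8.9%, and SDC2, a syndecan whose tail binds ezrin, from 41.6% and 29.4% to 21.1% and 21.2%, so both were better. NHERF1, the related scaffold also known as EBP50, was among the best Pol II summits in both lines, at 1.55% and 6.73% and then at 1.07% and 1.29%. It too was better, with a change of -2.96 points.

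For H3K4me3, ICAM2, an adhesion receptor bound by the family, went from 78.3% and 70.3% to 100% and 88.2%, AMOTL1 from 2.78% and 7.34% to 18.5% and 24%, and MCAM, an adhesion molecule that is also on the long arm of chromosome 11, from 41.1% and 48.6% to 57.3% and 54.3%. These genes were all worse. For H3K9Ac, SDC2 went from 12.8% and 20.4% to 23% and 49.1%, ICAM1 from 31.5% and 30% to 61.2% and 34.1%, and AMOTL1 from 3.29% and 4.74% to 8.37% and 12%. SDC2 was thus better for Pol II and worse for H3K9Ac. So was NHERF1, whose H3K9Ac went from 11.5% and 15.4% to 20% and 16.6%. CD44, the hyaluronan receptor that the family anchors, overlapped between the lines for all 3 marks, with Pol II at 2.29% and 2.89% and then at 2.08% and 3.58%. WWC1, a Hippo scaffold that works with merlin, had Pol II at 50.1% and 61.5% in parental lists and in neither SAP30-KO1 list. It falls outside the naming rule and was picked for that loss, and no share of all genes with such a loss is given beside it.

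**Figure D5:**
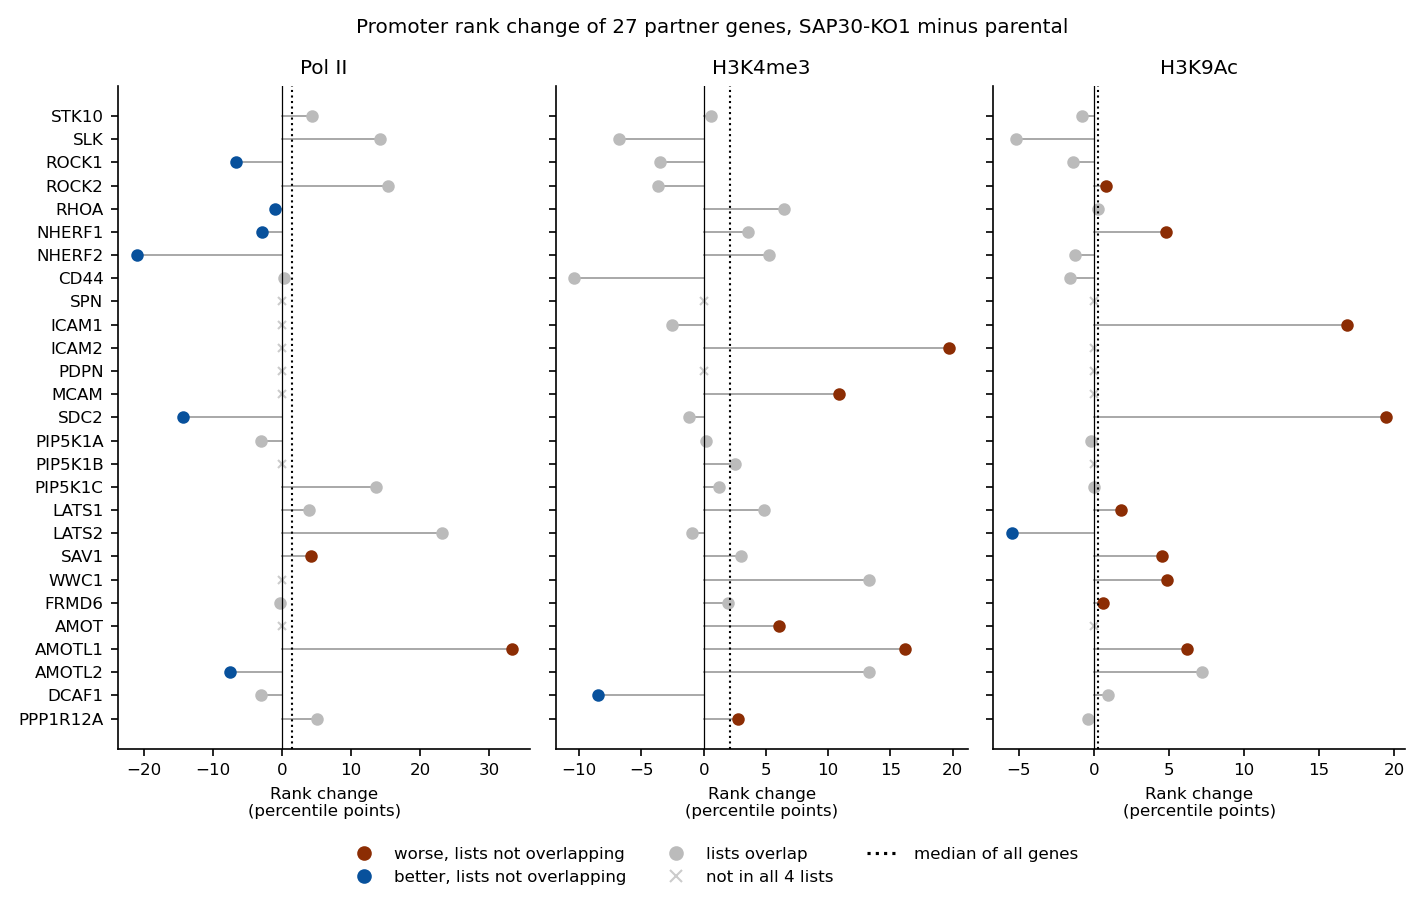
Change of the best promoter rank, SAP30-KO1 minus parental in percentile points, for the 27 partner genes and 3 marks. Dots are coloured by whether the lines overlap and crosses are genes without a summit in all 4 lists; AMOTL1 has the largest Pol II change, 33.2.

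Of 5747 other genes with a summit in all 18 lists, the one whose ranks were most like those of RDX was ANLN, the gene of the actin-binding protein anillin, with a root mean square difference of 5.23 points over the 18 lists, before MATCAP2 (5.83). EZR was nearest to POLM (5.53), CD59 (6.27) and PLCB3 (6.86), and MSN to ZFYVE27 (6.59), FBXW5 (7.72) and SIK3 (7.73). NF2 had no such value because 1 list lacked it. Between members the difference was 15.4 points for RDX and MSN, 17 for RDX and EZR and 17.5 for EZR and MSN. No member was thus among the genes nearest to another. The nearest genes are the smallest of 5747 values, and the difference between ordinary pairs of genes was not computed. Whether the members are more or less alike than such pairs is therefore unknown.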

How the data were processed

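Libraries were grouped by antibody target and line as labelled. Those of SAP30, SIN3A and SIN3B are labelled MDA-MB-231 with no line named and were taken as parental. Lists of 18 libraries were used, and 12 samples (8 of input chromatin, 4 of histone H3) were left out here. The deposited lists hold MACS2 summits of 1 bp called per library, and the authors' score in them is the −log10 of the q-value. The submitters' processing notes name FastQC 0.11.2, Bowtie2 2.3.3.1, Picard, MACS2 2.1.0 and hg19. Controls and MACS2 options are not given in the sources used here. Depth is unknown, so no counting interval was computed, and a rank depends on all summits of its list.

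Scores were ranked within lists (ties averaged), and each gene took its best summit within 1000 bp of a basic start site of GENCODE release 44 on GRCh37. Lines were compared by exact two-sided permutation tests of 2 libraries against 2. Members and lists were chosen with earlier results of these data known. Text names, of 27 partners, the 3 largest separated changes per mark, with CD44 and NHERF1 always, genes within 1 Mb of RDX or starting in the spans or flanks, and the 3 genes nearest to each member, of which 1 is not reported here. Calls were checked on simulated lists with large planted changes and little noise between replicates (Python 3.11.15, numpy 2.4.6, pandas 2.3.3). That check does not show how reliable a call is at the replicate spread of the real lists. Alternatives were other windows, start sites, rankings and list lengths, each library left out and the replicate number as a block.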

Additional observations from a re-analysis of the deposited data

How the results depend on the processing

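No change between the lines could pass the test with 2 libraries against 2, so only directions were compared. The 12 rank changes of the 4 genes kept their direction with windows of 500 and 3000 bp, the canonical start site only, the nearest summit, ranks among promoter summits, lists of equal length and, an alternative chosen after seeing the data, tied scores given their lowest rank. Their size was less stable. The Pol II change of EZR was 11.7 with the canonical start site only, and with the nearest summit that of RDX was 31.3 and that of NF2 20.8. Ranks among promoter summits, which are on another scale, gave RDX 35.5, 24.1 and 28.7 points for Pol II, H3K4me3 and H3K9Ac, and for H3K4me3 gave MSN -38.8 and NF2 25. Leaving out 1 library turned 6 of the 48 values. Without single libraries the Pol II change ranged from -0.762 to 2.82 for EZR and from -3.93 to 12.9 for MSN, the H3K4me3 change from -0.694 to 12.3 for EZR, and the H3K9Ac change from -0.406 to 3.33 for EZR and from -3.02 to 1 for MSN. The Pol II change of RDX ranged from 13 to 24.8, its H3K4me3 change from 4.29 to 21.9 and the H3K4me3 change of MSN from -25.2 to -12.8. RDX minus its paralogues ranged from -0.828 to 25.7 for H3K4me3. RDX minus the median of its arm ranged from 0.88 to 16 for Pol II, from -7.31 to 12.9 for H3K4me3 and from -2.37 to 5.34 for H3K9Ac, and against genes within 5 Mb it was -1.12 for H3K9Ac. Ranks among promoter summits put 3 partner genes, in place of 1, on the better side for H3K4me3. The cause of these changes was not tested. The count of 3 promoters with SAP30, SIN3A and SIN3B was 2 with a window of 500 bp or the better-ranked part of each list, and 4 with either replicate. With the replicate block the Pol II change of RDX was 18.9 as before (exact permutation p = 0.5, the smallest that 2 pairs allow). The promoter ranks of libraries of the same number did not deviate together (correlations of 0.00745, -0.019 and -0.0136 over genes for Pol II, H3K4me3 and H3K9Ac). The labels do not say whether such libraries share a culture or a day, and these correlations cannot tell. Unknown depth limits every rank, and a missing summit says only that none was listed.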
